A study of Homo sapiens with 6 samples.

Results

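The kinetochore and spindle checkpoint genes described here are 41 named human genes whose products build the kinetochore, watch over its attachment to the spindle, or carry out the start of anaphase. They were taken by gene symbol, all 41 were found among the 56638 symbols of the count tables, and no cut on a measured value was applied. RNA was sequenced from DLD-1, a cell line established from a human colorectal cancer, grown in RPMI-1640 with fetal bovine serum at passage 16 to 19. The cells had received a control siRNA (3 libraries, the controls) or siRNA directed at the long non-coding RNA lncSLCC1, which the tables list as RP11-400N13.2 (3 libraries, called the knockdown libraries). Sources used here do not give the siRNA sequences, their number or dose, or the time to harvest. Nothing in the labels says whether the replicates were separate cultures. The p-values thus set the group difference only against the variation among these libraries, and that variation may be technical.

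A kinetochore is the protein platform that each chromosome assembles on its centromere and that holds the microtubules of the mitotic spindle. Its inner layer, the constitutive centromere-associated network, sits on nucleosomes that carry the histone variant CENPA, and its outer layer, which includes the NDC80 complex, grips the microtubules. While any kinetochore lacks an attachment, the spindle assembly checkpoint turns MAD2L1, BUB1B and BUB3 into an inhibitor of CDC20, the protein that activates the anaphase-promoting complex. Once all are attached, CDC20 is freed, securin (PTTG1) and cyclin B are degraded, and separase (ESPL1) opens the cohesin rings. Many of these transcripts are made mainly in G2 and M phase. A bulk library cannot separate fewer cells in those phases from less RNA per cell.

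The libraries held 12572277 to 15568075 reads assigned to genes, of which the 41 genes took 0.287% to 0.317%. The targeted RNA was lower in each knockdown library (1.695, 2.69 and 2.15 CPM, gene reads scaled to 1000000 per library) than in any control (4.91, 9.19 and 8.98 CPM), with an adjusted p of 0.0027 by edgeR. Of 10 colorectal epithelial markers all were detected in every library, at a summed 5755 to 6820 CPM in controls and 6054 to 6357 CPM upon knockdown. KRT8 alone gave 3179 to 4083 CPM, while CDX1 stood at most at 0.336 CPM and LGALS4 at most at 2.78 CPM. The 7 fibroblast markers summed to at most 3.34 CPM, the 4 endothelial markers to at most 2.03 and the 5 leukocyte markers to at most 0.321, and DCN, LUM, PDGFRA, PECAM1 and KDR had no read in any library. COL1A1, PDGFRB and VWF were read in every library, at most at 2.08, 1.59 and 1.97 CPM. PDGFRB passed as higher upon knockdown (log2 fold change 1.28, edgeR adjusted p = 0.0448). Of the 9 epithelial markers tested 1 was higher and 0 lower. The higher one was VIL1, at 18.4, 13.6 and 18.35 CPM in controls and 28.3, 33.2 and 35.3 CPM upon knockdown. Its log2 fold change was 0.87 (edgeR adjusted p = 0.00618).

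Control replicate 1 stood apart from the other 2 controls. It had the lowest value of all 6 libraries for 21 of the 41 genes, a count not made over all tested genes. It was below both other controls for 25 of the 41 genes and above both for 12. Over all 15242 tested genes these 2 counts were 6550 and 5981. TTK stood at 21.4 CPM there against 57.4 and 60.7 CPM in control replicates 2 and 3. TTK, CENPE, SGOL2 and CENPQ were each more than 2-fold below the mean of those 2 libraries. The deviation of control replicate 1 followed the base composition of the transcripts, with a Spearman rho of 0.80 and a Pearson r of 0.75 against GC content across the 41 genes, and a rho of -0.26 against transcript length. These are descriptions over genes that share the same libraries. The median coefficient of variation of the 41 genes was 13% over the 3 controls, 5.53% over control replicates 2 and 3, and 3.55% over the 3 knockdown libraries. Genes that passed only without control replicate 1 are given with that value.

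**Figure D1:**
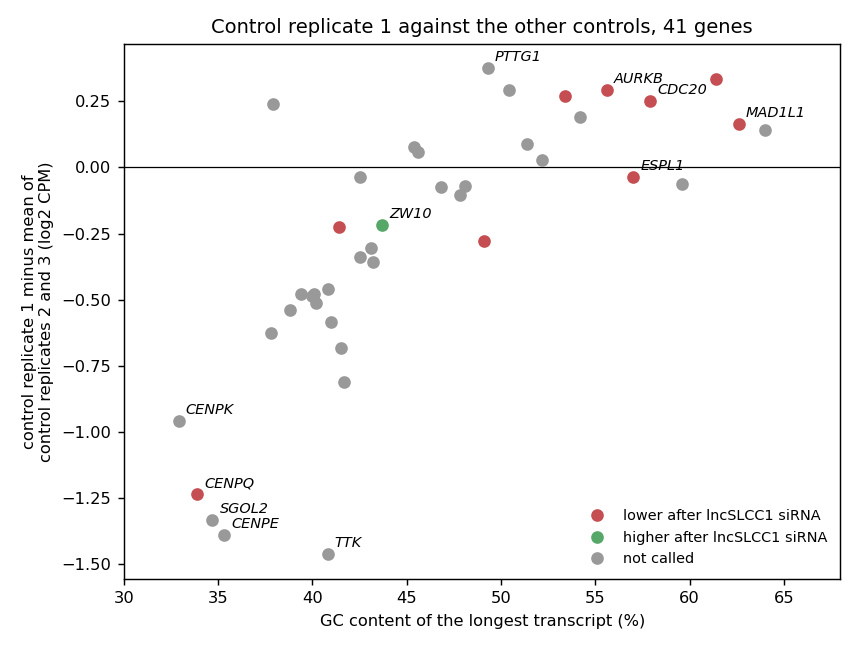
Difference in log2 CPM between control replicate 1 and the mean of control replicates 2 and 3 (vertical axis) against the GC content of the longest annotated transcript (horizontal axis) for the 41 genes, coloured by the result of lncSLCC1 siRNA against control siRNA. Transcripts poor in GC, such as CENPE, SGOL2 and CENPQ, lie more than 1 unit below 0, as does TTK at 40.8% GC, and MAD1L1 and CDC20, both rich in GC, lie above it.

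All 41 genes had enough reads to be tested, with at least 93 reads in every library. Upon knockdown 9 of them were lower and 1 was higher (edgeR quasi-likelihood test, Benjamini-Hochberg adjusted p under 0.05 over all 15242 tested genes), and 31 did not pass. That is 22.0% lower and 2.44% higher, where 7.39% of all tested genes were lower and 6.46% higher. The median log2 fold change of the 41 genes was -0.10, against 0.01 for all tested genes, and 30 of the 41 values were negative. The 9 lower genes were MAD1L1, BUB3, CENPM, CENPN, CENPQ, SPC24, AURKB, CDC20 and ESPL1, and the higher gene was ZW10. Groups did not overlap in CPM for 12 of the 41 genes, or 29.3%, a smaller share than the 39.9% of all tested genes. MAD1L1 and ZW10 were the genes whose call held under all 16 alternative settings. Scaled to library totals in place of TMM, where the median of all genes moved to 0.08, the counts were 5 lower (MAD1L1, BUB3, AURKB, CDC20 and ESPL1) and 1 higher, with 5.34% of all tested genes lower and 9.46% higher.

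Single libraries changed the count of lower genes more than the method did. Without control replicate 1 it was 19, among them all 9 named above, with 15.5% of all tested genes lower and 13.5% higher in that fit. The 10 added genes were MAD2L1, BUB1B, TTK, CENPK, CENPW, CENPE, NUF2, SPC25, MIS12 and PTTG1. Of the 9, MAD1L1, CENPM, SPC24, AURKB and CDC20 fell less in that fit, at -0.81, -0.31, -0.31, -0.39 and -0.44. BUB3, CENPN and CENPQ fell more, at -0.41, -0.50 and -1.21, and ESPL1 was at -0.42 in both fits. Without control replicate 2 the count was 3 (MAD1L1, CDC20 and ESPL1), without knockdown replicate 1 it was 2 (MAD1L1 and CDC20), and without knockdown replicate 2 or 3 it was 1 (MAD1L1). The shares of all tested genes called lower in those 4 fits were 2.26%, 2.04%, 1.6% and 1.56% in that order, and the shares called higher were 1.69%, 1.75%, 1.43% and 1.37%. Without control replicate 3 it was 10 (CENPQ lost, CENPW and PTTG1 added), and CENPF joined ZW10 as higher (log2 fold change 0.30), where 13.4% of all tested genes were lower and 10.3% higher. The fold changes of TTK, CENPP, NDC80, ZWILCH, SGOL1, SGOL2 and FZR1 turned sign without control replicate 1. With 3 libraries against 3, an exact two-sided permutation test of a single gene cannot fall below p = 0.1, and each gene whose groups did not overlap reached that value.

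**Figure D2:**
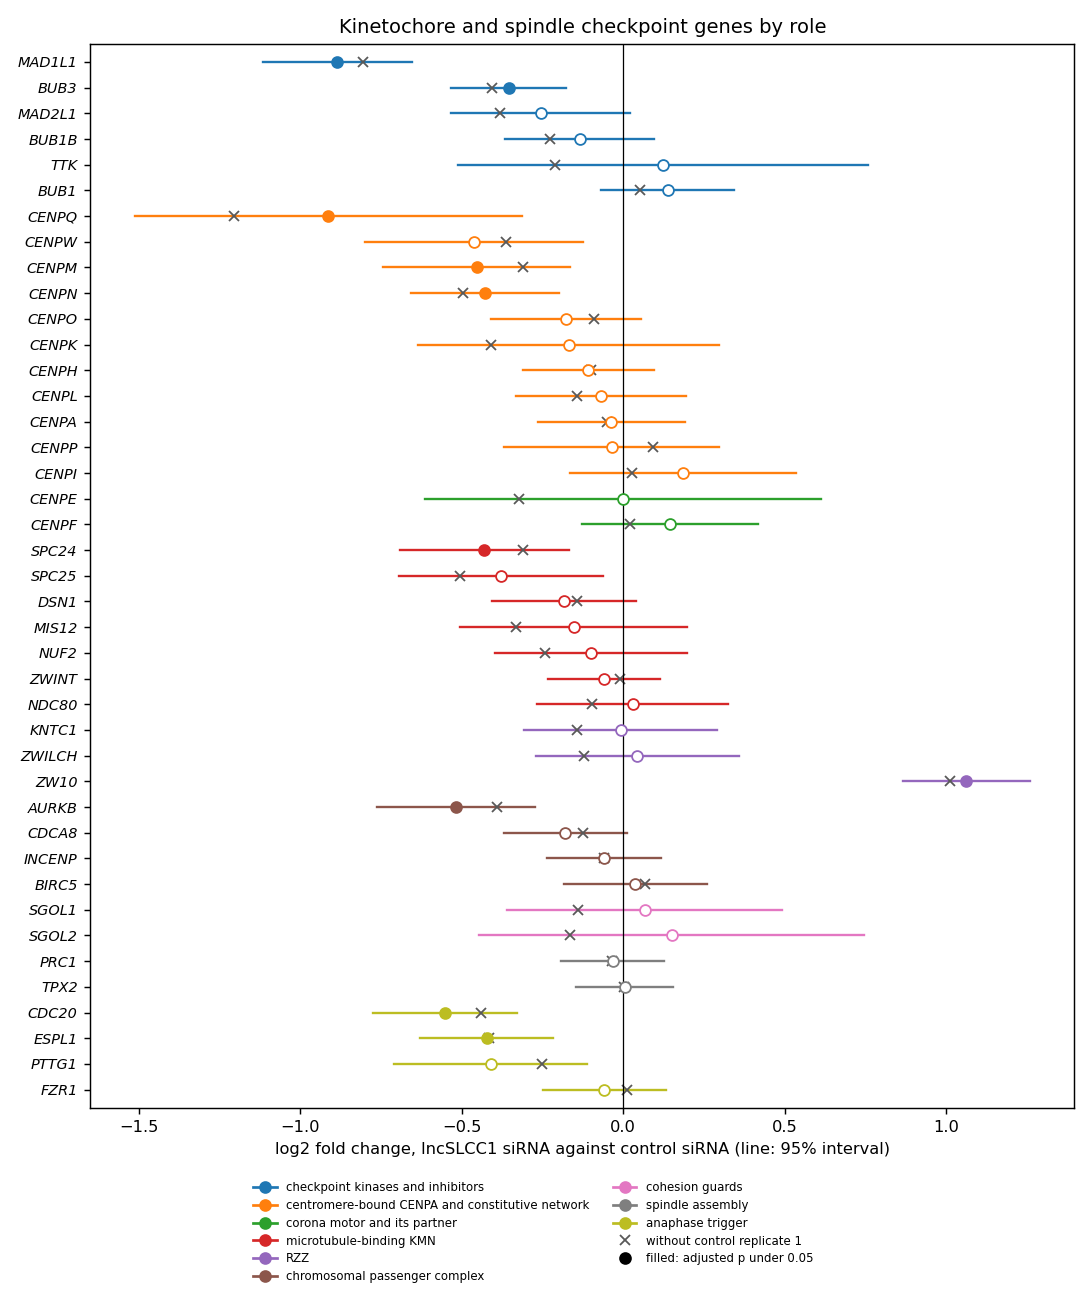
Log2 fold change of each of the 41 genes, lncSLCC1 siRNA against control siRNA, grouped by role and colour. Circles show the fit to all 6 libraries with lines for the 95% confidence interval, filled where the adjusted p was under 0.05, and crosses show the fold change without control replicate 1. ZW10, at 1.06, is far to the right, and MAD1L1 and CENPQ, at -0.89 and -0.91, are furthest to the left.

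Among the genes of the checkpoint itself, MAD1L1 showed the clearest fall. Its product, MAD1, sits on unattached kinetochores and turns MAD2 into its active form there. Control replicates 1, 2 and 3 gave 44.4, 39.9 and 39.4 CPM, and knockdown replicates 1, 2 and 3 gave 23.05, 23.98 and 23.3 CPM, in the order used throughout. Every knockdown library lay below every control, and the mean of 23.4 ± 0.481 CPM was 56.8% of the control mean of 41.3 ± 2.78 CPM (SD, n = 3 each). edgeR gave a log2 fold change of -0.89 (SE 0.103, 95% interval -1.12 to -0.65) at an adjusted p of 0.000928, and the value ran from -0.93 to -0.81 over the 16 alternatives.

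BUB3, the adaptor that brings BUB1 and BUBR1 to the kinetochore, was lower by a smaller amount. Its controls stood at 161.9, 189.6 and 188.8 CPM and its knockdown libraries at 146.1, 142.7 and 154 CPM. The groups did not overlap, and the log2 fold change was -0.35 (SE 0.080, adjusted p = 0.0196 by edgeR). It no longer passed when control replicate 2 (adjusted p = 0.0892) or any 1 knockdown library (0.0763 to 0.124) was left out.

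MAD2L1, which encodes MAD2, the checkpoint's direct binder of CDC20, was at 58.4, 79.7 and 83.02 CPM in controls and 64.8, 59.2 and 69.8 CPM upon knockdown. The groups overlapped through control replicate 1 alone. Its log2 fold change of -0.26 (SE 0.124, 95% interval -0.53 to 0.02) did not pass the test (adjusted p = 0.185 by edgeR). It was -0.38 without control replicate 1 (adjusted p = 0.00025) and -0.42 with offsets for GC content and length (adjusted p = 0.00105).

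BUB1B, which encodes BUBR1, a subunit of the mitotic checkpoint complex, was at 79.3, 94.5 and 109.6 CPM in controls and 88.5, 90.9 and 90.7 CPM upon knockdown, and its log2 fold change of -0.14 (SE 0.103) did not pass (adjusted p = 0.401 by edgeR). All 3 knockdown libraries lay between the lowest and the second control. Without control replicate 1 the value was -0.23 with an adjusted p of 0.0114. With offsets for GC content and length it was -0.21 (adjusted p = 0.0184 by edgeR).

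BUB1, the kinase that marks centromeric chromatin for shugoshin, ran the other way in CPM. It stood at 118.9, 146.8 and 153.8 CPM in controls and at 157.8, 157.4 and 168.2 CPM upon knockdown. The groups did not overlap, but the log2 fold change of 0.14 (SE 0.093, 95% interval -0.07 to 0.34) did not pass (adjusted p = 0.337 by edgeR), nor did it in any of the 16 alternatives.

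TTK, the MPS1 kinase that starts checkpoint signalling, depended on control replicate 1 for its sign. Its controls were at 21.4, 57.4 and 60.7 CPM and its knockdown libraries at 51.3, 54.1 and 52.7 CPM. The knockdown libraries lay below control replicates 2 and 3 and above control replicate 1. The log2 fold change was 0.12 (SE 0.285, adjusted p = 0.802 by edgeR) with all libraries and -0.21 (SE 0.069, adjusted p = 0.0239) without control replicate 1.

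In the inner kinetochore, 3 of 11 genes were lower and 0 higher, with log2 fold changes from -0.91 to 0.18 and a median of -0.17. By unadjusted p under 0.05 the counts were 4 lower and 0 higher, where 2489 of all 15242 tested genes were lower and 2330 higher. CENPA, the histone variant that marks the centromere, did not pass, at 20.3 ± 1.36 and 20.8 ± 0.687 CPM (SD, n = 3 each). Its log2 fold change was -0.04, with a 95% interval of -0.27 to 0.19.

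CENPN binds the CENPA nucleosome directly and was lower upon knockdown. It was at 31.0, 38.5 and 36.8 CPM in controls and 26.4, 28.5 and 27.8 CPM upon knockdown, without overlap (log2 fold change -0.43, SE 0.103; edgeR adjusted p = 0.025). Its exons overlap those of CMC2 on the other strand in GENCODE 29, over 457 of 3568 exon bases, and the strand setting of the counting was not stated. The call was lost with library totals (0.0535), without control replicate 2 (0.107) and without any 1 knockdown library (0.103 to 0.122). Its partner CENPL was at 17.1 ± 2.22 and 17.1 ± 0.815 CPM (SD, n = 3 each) and did not pass (log2 fold change -0.07, adjusted p = 0.718 by edgeR).

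CENPM, a small subunit of the group that holds CENPH, CENPI and CENPK, was at 59.6, 49.9 and 44.8 CPM in controls and 41.96, 39.97 and 36.4 CPM upon knockdown. The highest knockdown library lay just below the lowest control. The log2 fold change was -0.45 (SE 0.130) at an adjusted p of 0.045 by edgeR, and the call was lost with library totals (0.0638), by limma-voom (0.0529) and without any one of control replicate 2 and the 3 knockdown libraries (0.108 to 0.175).

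CENPQ, a subunit of the CENP-O group, had the lowest fold change of the 41 genes, with controls far apart. They stood at 7.13, 17.5 and 16.15 CPM, and the knockdown libraries at 7.93, 7.27 and 7.40 CPM. Control replicate 1 was thus below all 3 knockdown libraries, and the other 2 controls were above them by over 2-fold. The log2 fold change was -0.91 (SE 0.268) at an adjusted p of 0.0496 by edgeR and -1.21 (SE 0.121, adjusted p = 9.01e-08) without control replicate 1. An exact two-sided permutation test over all 6 libraries gave p = 0.4, and 10 of the 16 alternatives lost the call. CENPU, another subunit of the CENP-O group and no member of the 41, was at 43.03, 67.4 and 62.6 CPM in controls and 41.1, 42.9 and 40.6 CPM upon knockdown (log2 fold change -0.54, SE 0.139; edgeR adjusted p = 0.0334).

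The other 7 inner kinetochore genes did not pass. CENPW, which pairs with CENPT in a histone-like dimer, came closest, at 27.4, 27.8 and 19.4 CPM in controls and 18.5, 19.7 and 18.7 CPM upon knockdown. Control replicate 3 overlapped with the knockdown values, and the log2 fold change of -0.46 (SE 0.151) had an adjusted p of 0.0674 by edgeR, and was -0.36 without control replicate 1 (adjusted p = 0.0226). CENPK, at a log2 fold change of -0.17 with a 95% interval from -0.64 to 0.30, was at -0.41 without control replicate 1 (adjusted p = 0.00207). CENPH, CENPI, CENPO and CENPP had log2 fold changes of -0.11, 0.18, -0.18 and -0.04. With offsets for GC content and length CENPO was lower (-0.21, adjusted p = 0.0357 by edgeR).

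In the outer kinetochore SPC24 was the only one of 7 genes of the NDC80, MIS12 and KNL1 complexes to pass. The NDC80 complex is a rod of 4 proteins: NDC80 and NUF2 touch the microtubule, and SPC24 and SPC25 anchor the rod to the kinetochore. SPC24 was at 53.45, 47.1 and 41.6 CPM in controls and 37.3, 36.95 and 36.7 CPM upon knockdown, without overlap (log2 fold change -0.43, SE 0.117; edgeR adjusted p = 0.0383). The call was lost with library totals (0.0525), without control replicate 2 (0.113) and without any 1 knockdown library (0.128 to 0.150).

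SPC25 was at 15.5, 22.1 and 21.2 CPM in controls and 14.2, 17.2 and 16.0 CPM upon knockdown, and only control replicate 1 reached into the knockdown range. Its log2 fold change of -0.38 (SE 0.142) did not pass (adjusted p = 0.102 by edgeR), whereas without control replicate 1 it was -0.50 (adjusted p = 0.000772). With offsets for GC content and length SPC25 was at -0.41 (adjusted p = 0.0106 by edgeR). NDC80 and NUF2 had log2 fold changes of 0.03 and -0.10, with 95% intervals of -0.27 to 0.33 and -0.40 to 0.20. Without control replicate 1 they were at -0.10 (adjusted p = 0.419) and -0.24 (adjusted p = 0.0234). DSN1 and MIS12, subunits of the complex that links inner and outer layers, were at -0.18 and -0.15, and ZWINT, a partner of KNL1, was at -0.06 (95% interval -0.23 to 0.11).

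DSN1 was at 39.5, 37.8 and 37.99 CPM in controls and 38.2, 32.7 and 35.6 CPM upon knockdown, and 1 knockdown library lay inside the control range (SE 0.1, adjusted p = 0.237 by edgeR). MIS12 turned from -0.15 to -0.33 without control replicate 1 (adjusted p = 0.00472). CENPE, the kinesin that carries chromosomes to the spindle equator, was at 19.9, 48.95 and 55.7 CPM in controls and 42.9, 43.5 and 43.3 CPM upon knockdown. Its log2 fold change was near 0 with all libraries (95% interval -0.61 to 0.61) and -0.32 without control replicate 1 (adjusted p = 0.00235). CENPF, a large corona protein, did not pass (log2 fold change 0.15, adjusted p = 0.449 by edgeR).

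ZW10 was the only one of the 41 genes to pass as higher in the fit to all 6 libraries. With KNTC1 (ROD) and ZWILCH it forms the RZZ complex, which brings MAD1, MAD2 and dynein to unattached kinetochores, and ZW10 also takes part in membrane traffic between the endoplasmic reticulum and the Golgi. It stood at 29.5, 33.5 and 35.1 CPM in controls and at 70.8, 72.9 and 71.03 CPM upon knockdown. All 3 knockdown libraries lay above all 3 controls, and the spread within each group was small beside the gap. The mean rose from 32.7 ± 2.87 to 71.6 ± 1.17 CPM (SD, n = 3 each), with a log2 fold change of 1.06 (SE 0.088, 95% interval 0.86 to 1.26) and an adjusted p of 0.000229 by edgeR. Over the 16 alternatives it ran from 1.01 to 1.13.

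The partners of ZW10 did not pass the test. KNTC1 was at 49.7, 64.2 and 78.2 CPM in controls and 69.9, 65.3 and 64.6 CPM upon knockdown, and its log2 fold change was -0.01 (95% interval -0.31 to 0.29). ZWILCH was at 40.4, 61.3 and 63.4 CPM in controls and 57.4, 59.2 and 61.6 CPM upon knockdown, with a log2 fold change of 0.04 (95% interval -0.27 to 0.36). Without control replicate 1 they were at -0.14 and -0.12 (adjusted p = 0.165 and 0.191). For both, the knockdown libraries lay inside the range of the controls.

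Of the chromosomal passenger complex, which corrects wrong attachments at the centromere, the kinase gene AURKB was lower. Its controls were at 120.9, 101.7 and 95.8 CPM and its knockdown libraries at 80.6, 75.8 and 77.3 CPM, without overlap. The log2 fold change was -0.52 (SE 0.110, adjusted p = 0.0156 by edgeR), and -0.39 without control replicate 1 (adjusted p = 5.02e-05). It did not pass when control replicate 2 (adjusted p = 0.0572) or any 1 knockdown library (0.0633 to 0.0898) was left out.

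The 3 non-catalytic subunits did not pass. CDCA8, which encodes borealin, was at 101.3, 98.3 and 92.2 CPM in controls and 89.6, 94.1 and 86.9 CPM upon knockdown. Its log2 fold change was -0.18 (SE 0.085, adjusted p = 0.18 by edgeR), with 1 knockdown library inside the control range. With offsets for GC content and length CDCA8 was lower (-0.16, adjusted p = 0.0379 by edgeR). INCENP, the scaffold that activates AURKB, was at -0.06 (95% interval -0.23 to 0.12), and BIRC5, which encodes survivin, was at 0.04 (-0.18 to 0.26).

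The shugoshin genes SGOL1 and SGOL2, whose products shield centromeric cohesin, had log2 fold changes of 0.07 and 0.15 with wide 95% intervals of -0.36 to 0.49 and -0.45 to 0.75. SGOL2 was at 16.2, 39.3 and 42.5 CPM in controls and 38.8, 34.6 and 40.1 CPM upon knockdown, and without control replicate 1 its log2 fold change was -0.16 (SE 0.082). TPX2, which activates Aurora A on the spindle, and PRC1, which bundles microtubules of the central spindle, were the most tightly bounded of all. TPX2 did not overlap between groups in CPM (228.9 to 241.0 in controls, 247.8 to 250.8 upon knockdown). It had a log2 fold change of 0.00 with a 95% interval of -0.15 to 0.15, and PRC1 of -0.03 with -0.19 to 0.13.

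Genes of the anaphase trigger were lower for 2 of 4. CDC20, the activator that the checkpoint restrains, had the highest level per transcript length of the 41 genes, at 202.7 CPM per kilobase in controls and 145.3 upon knockdown. It was at 402.8, 352.3 and 325.5 CPM in controls and 263.6, 249.4 and 261.5 CPM upon knockdown. The lowest control lay well above the highest knockdown library, and the mean of 258.2 ± 7.64 CPM was 71.7% of the control mean of 360.2 ± 39.3 CPM (SD, n = 3 each). Its log2 fold change was -0.55 (SE 0.1, 95% interval -0.78 to -0.33, adjusted p = 0.00795 by edgeR), and the call was lost without knockdown replicate 2 (adjusted p = 0.0629) or 3 (0.0533). The pseudogene CDC20P1 was listed with 395 to 403 reads in controls and 210 to 291 upon knockdown, against 3288 to 5991 reads for CDC20, and whether the copies shared reads was not tested.

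FZR1 encodes CDH1, the activator that takes over from CDC20 after anaphase, and did not pass the test. It was at 100.4 ± 5.75 CPM in controls and 101.2 ± 1.14 CPM upon knockdown (SD, n = 3 each; log2 fold change -0.06, 95% interval -0.25 to 0.13).

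ESPL1, which encodes the protease separase, was at 108.1, 99.8 and 123 CPM in controls and 85.2, 85.1 and 88.7 CPM upon knockdown. The groups did not overlap (log2 fold change -0.42, SE 0.092; edgeR adjusted p = 0.0172), and the call was lost without knockdown replicate 1, 2 or 3 (0.0900, 0.0992 and 0.0789). PTTG1, which encodes securin, the inhibitor of separase, was at 105.3, 87.7 and 75.1 CPM in controls and 73.4, 65.3 and 73.6 CPM upon knockdown. Its groups did not overlap either, but the lowest control and the highest knockdown library lay close together, and the log2 fold change of -0.41 (SE 0.134) did not pass (adjusted p = 0.0674 by edgeR). It did pass in 7 of the 16 alternatives, among them without control replicate 1, where it was -0.25 (adjusted p = 0.0132). PTTG1 has near-identical copies, and both PTTG2 and PTTG3P were listed with 0 reads in every library.

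**Figure D3:**
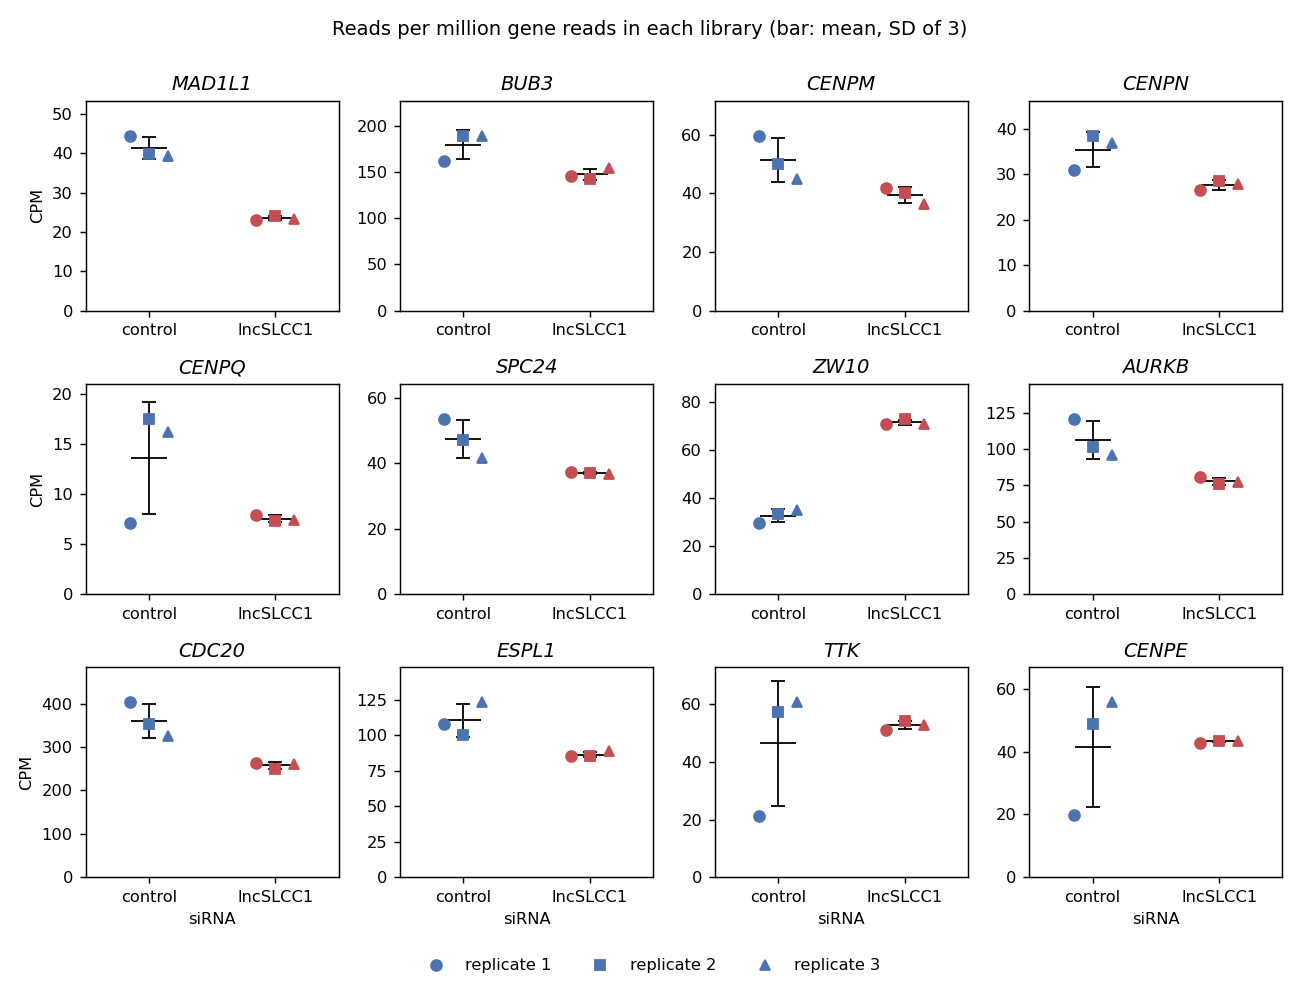
CPM (vertical axes, from 0) in each library for the 10 genes that passed the test and for TTK and CENPE, with control siRNA in blue and lncSLCC1 siRNA in red. Symbols mark the replicates and bars the mean and SD of 3 libraries; MAD1L1 falls from 41.3 to 23.4 CPM, ZW10 rises from 32.7 to 71.6 CPM, and control replicate 1 lies far below the other controls for CENPQ, TTK and CENPE.

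Genes whose products act in the same complex or process were also compared as read ratios within each library, which do not depend on how libraries are scaled. The 10 ratios were chosen after the values had been seen, so they are a description, with no test. The ratio of ZW10 to KNTC1 was 0.594, 0.523 and 0.449 in controls and 1.01, 1.12 and 1.10 upon knockdown. That of ZW10 to ZWILCH was 0.730, 0.547 and 0.553 in controls and 1.23, 1.23 and 1.15 upon knockdown. Both ratios were higher in every knockdown library than in any control, by 1.05 and 1.00 log2 units. They are not corrected for transcript length, so only their change between groups can be read.

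The ratio of CDC20 to FZR1, the activators of early and late mitosis, went from 3.76, 3.64 and 3.35 to 2.63, 2.44 and 2.59. That of BUB3 to BUB1 went from 1.36, 1.29 and 1.23 to 0.926, 0.907 and 0.918, a difference of -0.50 log2 units. The SD of this log2 ratio was 0.075 over the controls and 0.015 over the knockdown libraries. Without control replicate 1 the difference was -0.46. The ratio of BUB1 to BUB1B went the other way, from 1.5, 1.55 and 1.4 to 1.78, 1.73 and 1.86. Those of CENPN to CENPL, MAD1L1 to MAD2L1 and AURKB to INCENP differed by -0.36, -0.64 and -0.45 log2 units. Without control replicate 1 these 3 differed by -0.35, -0.42 and -0.33.

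For SPC24 to SPC25 and ESPL1 to PTTG1 the groups overlapped (differences of -0.05 and -0.02 log2 units, and 0.20 and -0.16 without control replicate 1). Control replicate 1 was the highest control in the ratio of SPC24 to SPC25, at 3.46 against 2.13 and 1.96.

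**Figure D4:**
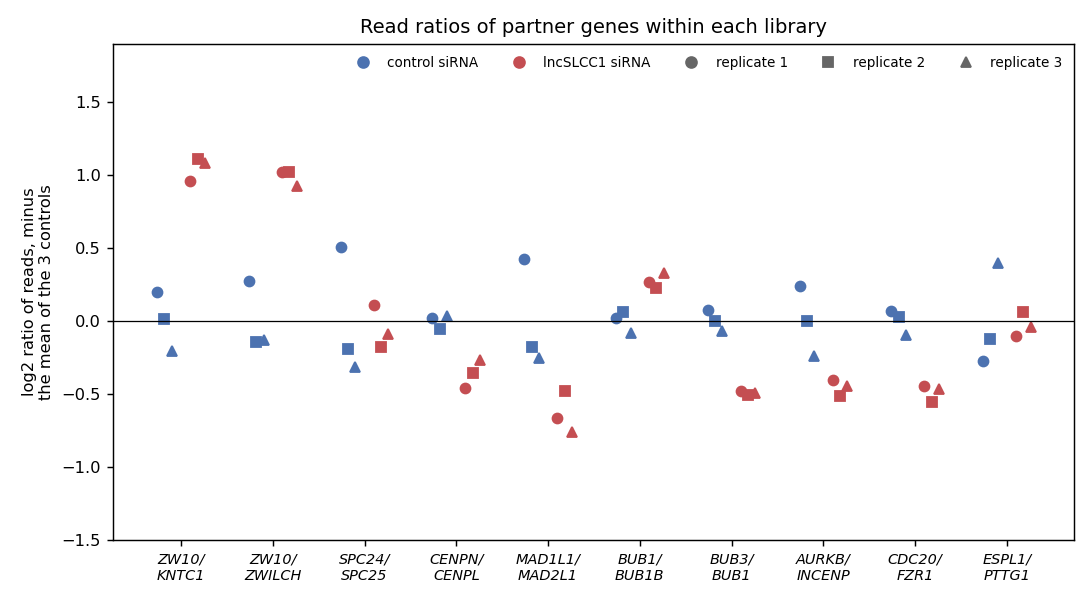
Log2 ratio of reads of 2 genes in the same library, set to 0 at the mean of the 3 controls (vertical axis), for 10 pairs of partner genes (horizontal axis), with control siRNA in blue, lncSLCC1 siRNA in red and a symbol for each replicate. Both ZW10 ratios rise by about 1 unit, BUB3/BUB1 and CDC20/FZR1 fall by 0.50 and 0.49, and SPC24/SPC25 and ESPL1/PTTG1 overlap.

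Other genes of the same machinery were read from lists outside the 41. The shares over all tested genes, 7.39% lower and 6.46% higher, and those of the fits without 1 library given above are the background for their counts. At an unadjusted edgeR p under 0.05, 2489 of 15242 genes were lower and 2330 higher with all libraries. Without control replicate 2 the counts were 2047 lower and 1850 higher of 15607. Without knockdown replicates 1, 2 and 3 they were 1831, 1662 and 1774 lower and 1783, 1651 and 1754 higher, of 15557, 15532 and 15593. Of 33 further kinetochore and centromere genes, 13 were lower and 1 higher, with a median log2 fold change of -0.24. The lower genes were led by KIF2C, a microtubule depolymerase that removes wrong attachments, at -1.19 (SE 0.094), and TRIP13, the ATPase that takes MAD2 complexes apart, at -0.90 (SE 0.089). PLK1, OIP5 and AURKA followed at -0.52 (SE 0.083), -0.73 (SE 0.123) and -0.41 (SE 0.076), and adjusted p-values by edgeR over these 5 ran from 0.000197 to 0.00914. SKA2, part of the SKA complex that steadies NDC80 on microtubules, was the riser, at 21.99, 38.4 and 36.1 CPM in controls and 55.5, 55.8 and 56.5 CPM upon knockdown (log2 fold change 0.73, SE 0.164; edgeR adjusted p = 0.0191). It was 0.54 without control replicate 1. The count of lower genes was 8 with library totals, 6 without control replicate 2 and 4 without any 1 knockdown library, and in the last 3 fits none of the 33 was higher (unadjusted p under 0.05 for 1 each).

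In the anaphase-promoting complex 4 of 17 genes were lower and 0 higher, with a median of -0.11. UBE2S and UBE2C, the ubiquitin-conjugating enzymes of the complex, were at -0.73 (SE 0.156) and -0.48 (SE 0.125), and the subunits CDC23 and ANAPC10 were at -0.51 (SE 0.089) and -0.54 (SE 0.134). The count was 6 without control replicate 1, 1 without control replicate 2, and 2, 0 and 0 without knockdown replicates 1, 2 and 3 (5, 4 and 5 at an unadjusted p under 0.05). Of 14 genes of cohesin and its regulators, 2 were lower and 0 higher. These were CDCA5, which encodes sororin, the protector of cohesin, at -0.43 (SE 0.097), and SMC1A, a ring subunit, at -0.29 (SE 0.081). The cohesin count was 3 without control replicate 1, 0 without control replicate 2 or any 1 knockdown library (2 each at an unadjusted p under 0.05), and 1 lower and 3 higher without control replicate 3. The cohesin median was 0.14 with all libraries and -0.01 without control replicate 1.

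Of 22 other genes typical of G2 and M phase, 6 were lower and 0 higher, with a median of -0.24. CDC25B was at -1.31 (SE 0.095), CKS1B at -0.67 (SE 0.121), CCNB1 at -0.37 (SE 0.076), MYBL2 at -0.35 (SE 0.087) and CDC25C at -0.48 (SE 0.134). MKI67 and TOP2A, commonly used as markers of dividing cells, were at 0.02 (SE 0.098) and 0.04 (SE 0.134), and at -0.02 and -0.12 without control replicate 1 (adjusted p = 0.864 and 0.0931). With offsets for GC content and length TOP2A was lower (-0.12, adjusted p = 0.0436). UBE2C is counted in both this list and the previous one. The part of cell cycle distribution in the results was not tested. Without control replicate 1, 15 of the 22 were lower; without control replicate 2 it was 3, and without knockdown replicates 1, 2 and 3 it was 2, 1 and 1, with 0 higher in each.

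The promoters of the 41 genes were then read for words that were not used to choose the genes. The words were picked because many of these transcripts are made in G2 and M phase, so their share is not independent of that choice. Many genes of G2 and M phase carry a cell cycle homology region near their start, which is bound by the MuvB complex and was searched here as the words TTTGAA and TTTAAA, which differ and so never match at the same place, on both strands. RefSeq promoters of assembly GRCh38.p14, from 250 bases before to 50 after the start, were found for 33 of the 41 genes, and 20 of the 33, or 60.6%, held a word. Among all 27305 genes of that table the share was 27.9%, and among protein-coding genes 24.7%. Genes with several starts counted once if any window held a word. TTTGAA alone was in 17 of the 33 against 15.8% of protein-coding genes. TTTAAA searched by itself was in 5 of the 33, or 15.2%, near the 14.5% of all genes and 12.8% of protein-coding genes. By result, a word was in 3 of the 7 lower genes with a promoter entry (CENPN, CDC20 and ESPL1), in ZW10, and in 16 of the 25 that did not pass.

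The 250 bases before the start are shown for CDC20 and ESPL1, lower genes with a word close to the start, for MAD1L1, a lower gene with none in its window, and for ZW10, the higher gene, whose word lies far from the start. Capitals mark the words, and each sequence runs 5′ to 3′ on the gene's own strand. The first base of the word stands at position -65 in CDC20, with the reverse complement at -178, at -31 in ESPL1 and at -224 in ZW10. The windows are chr1:43358731-43358980 (plus strand) for CDC20, chr12:53268049-53268298 (plus strand) for ESPL1, chr7:2232946-2233195 (minus strand) for MAD1L1 and chr11:113773693-113773942 (minus strand) for ZW10.
CDC20: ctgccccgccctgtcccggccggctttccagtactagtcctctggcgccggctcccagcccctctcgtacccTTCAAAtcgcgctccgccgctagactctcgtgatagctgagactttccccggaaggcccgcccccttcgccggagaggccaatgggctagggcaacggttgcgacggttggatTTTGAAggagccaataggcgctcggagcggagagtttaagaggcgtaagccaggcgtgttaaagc
ESPL1: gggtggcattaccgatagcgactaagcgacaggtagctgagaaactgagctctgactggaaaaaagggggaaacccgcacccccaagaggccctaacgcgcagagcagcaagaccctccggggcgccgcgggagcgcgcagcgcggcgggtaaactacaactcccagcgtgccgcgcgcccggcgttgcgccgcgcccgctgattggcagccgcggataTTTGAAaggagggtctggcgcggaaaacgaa
MAD1L1: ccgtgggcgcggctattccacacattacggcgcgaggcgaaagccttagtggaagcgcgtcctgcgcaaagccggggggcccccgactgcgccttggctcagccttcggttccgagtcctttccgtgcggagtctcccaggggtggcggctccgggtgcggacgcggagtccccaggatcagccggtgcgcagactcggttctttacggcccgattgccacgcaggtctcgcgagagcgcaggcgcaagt
ZW10: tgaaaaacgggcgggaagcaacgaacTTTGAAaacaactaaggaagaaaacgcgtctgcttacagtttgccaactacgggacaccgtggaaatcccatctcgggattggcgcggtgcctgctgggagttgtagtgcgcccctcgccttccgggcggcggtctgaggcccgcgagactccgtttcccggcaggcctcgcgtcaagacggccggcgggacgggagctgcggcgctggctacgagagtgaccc
A match describes these letters and is no evidence of binding.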

How the data were processed

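Total RNA of DLD-1 cells was sequenced in 6 libraries. The authors deposited raw read counts per gene symbol, made with TopHat2 2.0.11 and HTSeq on hg19 or GRCh37, per the submitters' processing notes. The strand setting and annotation release are not given in the sources used. HTSeq's summary lines (no feature 5.42% to 7.58%, ambiguous 8.83% to 10.1%, not unique 12.8% to 13.8% of all counted per library) were left out. CPM used the totals of gene reads, as the choice of the 41 genes states; fold changes came from edgeR 4.0.16 in R 4.3.3 (quasi-likelihood test, TMM, default expression filter, no covariate), so small CPM differences and fold changes can differ in sign. TMM factors ran from 0.9459 to 1.0281. Standard errors were derived from the F statistic.

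The 41 genes and all lists were chosen with earlier results of these data known. Values in every library are given for genes that passed, the 6 checkpoint genes, CDC20 and the 5 next by p, and for others where a result turns on them, named after their values were seen. From other lists up to 5 genes that passed, by p, and any single riser are named, and CENPU, MKI67 and TOP2A were named after their values were seen. Transcript length and GC content came from GENCODE 29 (longest transcript; 89.4% of tested genes). Exons of 15 of the 41 genes, 2 of them called, overlap another gene there, and reads of such genes cannot be told apart without strand. No 2 libraries of a group agreed within sampling noise (chi-square per gene 1.79 to 27.97). On simulated counts for this comparison (15014 genes, 200 changed) the test found 87.6% of 2-fold and 45.4% of 1.5-fold changes, and called 14 unchanged genes. The simulated libraries did not carry the shift of control replicate 1 along GC content, so these rates may not hold for the real ones. Alternatives were DESeq2 1.42.0, limma-voom (limma 3.58.1), other scalings and filters, GC content and length offsets, a replicate block and each library left out.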

Additional observations from a re-analysis of the deposited data

How the results depend on the processing

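Over all tested genes 984 were higher and 1126 lower. The counts were 1600 higher and 1672 lower with no low-count filter, 1817 and 2938 with GC content and length offsets, and 1652 and 2747 with these offsets and the replicate block. With library totals they were 1442 and 814. Leaving out 1 library gave 213 to 2112 higher and 244 to 2431 lower. Of the 41 genes 9 were lower, against 5 with library totals. The count was 15 with GC content and length offsets, 15 with offsets and the replicate block, and 1 to 19 with 1 library left out. The offsets without the block added BUB1B, MAD2L1, CENPO, SPC25, CDCA8 and PTTG1. The higher count was 1, or 2 without control replicate 3. The median log2 fold change of the 41 genes was -0.10; it moved to -0.035 with library totals, -0.17 with the offsets and -0.16 with offsets and block, and ran from -0.14 to -0.07 with 1 library left out. TTK turned from 0.12 to -0.21 without control replicate 1 (-0.21 to 0.34 over the libraries left out), and was the only one of the 19 genes named by rule that changed sign in the 16 alternatives. The cause of these shifts was not tested. With 3 libraries per group, these values cannot settle whether replicate numbers in the titles pair the libraries. The deposited files number the controls 2, 3 and 4 and the knockdown libraries 1, 3 and 4, so the first pair differs by that numbering. Same-numbered deviations correlated at 0.09, 0.00 and -0.02. Replicates 1 correlated best with each other, and replicates 2 and 3 did not correlate best with their own number. The replicate block gave 10 lower and 1 higher of the 41, with 993 higher and 1059 lower genes in all. TTTGAA alone was in 17 of 33 promoters, against 20 with both words.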
